A study of Mus musculus with 8 samples.

Results

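The interval between Tktl1 and Pls3 on the mouse X chromosome (GRCm38) was taken from shortly before Tktl1 to just past Pls3, and 9 of its protein-coding genes are described here, allele by allele. In order along the chromosome they were Tktl1, Ikbkg, F8, Fundc2, Cmc4, Brcc3, Vbp1, Rab39b and Pls3. The 9 were 9 of 2601 X-linked gene IDs and of 46078 gene IDs in the tables. They were selected on their values in the WT and XiΔXist pools, so all differences between those 2 pools are given as a description without a test. The working name of the set is a reactivated domain, and the data went against that name. Only 4 of the 9 genes gained reads from the inactive X by the threshold used, and most analysable genes between Tktl1 and Vbp1 had few or no Xi reads.

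RNA was measured by allele-specific RNA-seq in female mouse embryonic fibroblast (MEF) lines, with 8 samples in 4 groups of 2. The lines are clonal hybrids of 129 and CAST/EiJ, with strain labels 129S1/SvImJ x CAST/EiJ. Reads of both alleles were not seen for every autosomal gene. In WT 18759610 of 24310035 allelic reads were from 129, mitochondrial reads included. The autosomal genes Bard1 and Pfdn2, for example, had 129 reads only in WT and XiΔXist. Chuk, Ikbkb, Pfdn4 and Abraxas2 had at least 97.4% 129 reads in both pools. Brca1 had 58.5% and Pls1 6.45% in WT. The inactive X (Xi) always came from 129 and the active X (Xa) from CAST/EiJ. WT cells kept Xist, XiΔXist cells lacked Xist on the Xi, and both hairpin groups were XiΔXist cells transduced with lentivirus and selected with puromycin. The shSCR group carried a scrambled hairpin, and the shYY1 group carried hairpins against Yy1, a zinc finger transcription factor. The shYY1 replicates used 2 different hairpins. The deposited counts add the replicates of a group together, so each group is 1 pool and no value has a replicate error. Every interval below is a 95% interval for counting error alone, Wilson for a share and exact Poisson for a level. A clonal difference between the lines and the loss of Xist cannot be told apart.

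In female mammals Xist RNA coats 1 of the X chromosomes and its genes are kept silent, apart from genes that escape. Once silencing is set up in a somatic cell, much of it persists without Xist through other repressive layers. Each gene here can be followed by the share of its allelic reads that carry the 129 allele. That share is called the Xi share, and the d-score is the same share, as a fraction, minus 0.5. A gene was called analysable in a pool with at least 10 allelic reads, and raised where its d-score was at least 0.03 higher in XiΔXist than in WT.

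The depth differed greatly between pools, from 24310035 allelic reads in WT and 28329701 in XiΔXist to 2393545 in shSCR and 2504345 in shYY1. The hairpin libraries were also read with longer reads than the other libraries. Levels are given as counts per 1000000 allelic reads of the pool (CPM). Xist, the deleted gene, was at 1456 CPM in WT and 0.741 CPM in XiΔXist. The hairpin pools had 0 CPM (shSCR) and 2.40 CPM (shYY1) of Xist. Yy1 was at 36.7 CPM in shYY1 against 99.0 CPM in shSCR. The fibroblast markers Col1a1, Col1a2, Col3a1, Vim, Fn1, Pdgfrb, Thy1 and S100a4 summed to between 3767 and 9019 CPM in the 4 pools. The highest was Vim in WT and XiΔXist and Fn1 in the hairpin pools. S100a4 was the lowest, from 0 CPM in WT to 3.19 CPM in shYY1. The markers of epithelium, endothelium, blood and pluripotent cells summed to at most 2.76 CPM in any list. The Xi share of all X-linked reads without Xist was 1.5% in WT and lay between 6.0% and 6.06% in the 3 XiΔXist pools.

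The promoters of the raised genes are shown first, with that of a silent neighbour for comparison. All 9 genes had a promoter in the RefSeq table for GRCm38.p6, in 14 windows because Ikbkg and Pls3 have several starts. The 250 bases before the start are printed 5′ to 3′ on the gene's own strand, with CG pairs in capitals. Tktl1, Ikbkg, Vbp1 and Pls3 are the raised members, and Brcc3 is a silent member placed between them.
Tktl1: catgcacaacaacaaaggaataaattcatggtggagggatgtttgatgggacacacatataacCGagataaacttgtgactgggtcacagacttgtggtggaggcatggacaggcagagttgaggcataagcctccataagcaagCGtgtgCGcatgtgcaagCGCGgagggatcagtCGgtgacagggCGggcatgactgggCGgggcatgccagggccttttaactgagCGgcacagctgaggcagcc
Ikbkg: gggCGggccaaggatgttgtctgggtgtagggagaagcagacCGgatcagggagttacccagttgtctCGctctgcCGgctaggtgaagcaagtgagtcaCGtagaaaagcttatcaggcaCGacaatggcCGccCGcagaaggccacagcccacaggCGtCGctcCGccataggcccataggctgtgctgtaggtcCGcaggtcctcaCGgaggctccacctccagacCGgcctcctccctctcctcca
Vbp1: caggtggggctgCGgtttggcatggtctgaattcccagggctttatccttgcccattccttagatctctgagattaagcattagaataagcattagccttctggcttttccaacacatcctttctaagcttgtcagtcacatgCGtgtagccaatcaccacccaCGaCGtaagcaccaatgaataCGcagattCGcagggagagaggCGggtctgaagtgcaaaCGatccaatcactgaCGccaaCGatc
Pls3: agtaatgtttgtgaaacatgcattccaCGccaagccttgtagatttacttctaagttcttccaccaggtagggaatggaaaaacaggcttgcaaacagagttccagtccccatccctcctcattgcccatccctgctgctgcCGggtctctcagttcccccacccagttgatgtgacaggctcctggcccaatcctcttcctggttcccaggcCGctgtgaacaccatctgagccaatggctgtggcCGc
Brcc3: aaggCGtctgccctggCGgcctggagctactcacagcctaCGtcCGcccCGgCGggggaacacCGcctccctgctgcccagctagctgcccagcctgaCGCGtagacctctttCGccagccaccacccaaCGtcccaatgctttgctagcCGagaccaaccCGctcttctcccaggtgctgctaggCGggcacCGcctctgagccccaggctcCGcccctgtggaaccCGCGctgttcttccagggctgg
These bases lie at chrX:74177009-74177258 (+) for Tktl1, chrX:74393041-74393290 (+) for the first start of Ikbkg, chrX:75514047-75514296 (+) for Vbp1, chrX:75875183-75875432 (-) for the outermost start of Pls3 and chrX:75416378-75416627 (+) for Brcc3. The stretch held 9 CG pairs in Tktl1, 14 in Ikbkg, 10 in Vbp1, 4 in Pls3 and 18 in Brcc3. Of these 5 genes, those with a larger Xi share in XiΔXist had fewer CG pairs, apart from the order of Tktl1 and Pls3. The order rests on the genes shown and did not hold over all members. Brcc3 had the most CG pairs of all member windows, 23 in its full window. Rab39b, which was not raised, held 10 in its full window, against 12 in Vbp1 and 13 in Tktl1. The full window of F8, a member with no Xi read, held 2 CG pairs, fewer than any other single-start member.

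The core of the YY1 motif, ATGGCG, was searched on both strands of the full windows, which run from 250 bases before to 50 bases after the start. The longer form AANATGGCG, which contains the core, was searched as well. The core was present in 8.93% of all 32851 promoter windows and the longer form in 2.38%. Among the members the core was found in Vbp1, Cmc4 and the first start of Ikbkg, and the longer form in Vbp1 and Cmc4. These 3 sites are shown because they fall in a strongly raised, a silent and a weakly raised gene. The motif is in capitals, in its longer form for Vbp1 and Cmc4 and as the core for Ikbkg, each on the gene's own strand.
Vbp1: tttgctctggtgctttctgAAGATGGCGgc
Cmc4: accacctgcacCGCCATCTTctttccgctc
Ikbkg: caggcgtcgctcCGCCATaggcccataggc
The 30 bases lie at chrX:75514317-75514346 (+) for Vbp1, chrX:75416706-75416735 (-) for Cmc4 and chrX:74393195-74393224 (+) for Ikbkg. In Vbp1 the motif began at base 40 after the start and on the strand of the gene. It lay on the opposite strand in Cmc4, from 140 bases before the start, and in Ikbkg, from 84 bases before the start. The windows of Tktl1, Pls3, Brcc3, Fundc2, F8 and Rab39b held neither form. A match of letters is a description and says nothing about binding. The window of Cmc4 overlaps that of the divergent gene Brcc3.

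Tktl1, Vbp1 and Pls3 were the 3 members with a large Xi share in XiΔXist cells. Tktl1 encodes a transketolase-like protein related to an enzyme of the pentose phosphate pathway, Vbp1 a subunit of the prefoldin chaperone that hands unfolded actin and tubulin to the cytosolic chaperonin, and Pls3 the actin-bundling protein plastin 3. Ikbkg, the regulatory subunit of the IκB kinase complex (NEMO), had a small one. The 4 genes were 4 of the 9 members raised, against 40 of 430 X-linked genes analysable in both pools (9.30%). The members were chosen on this contrast, so nothing is read from that count.

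Vbp1 (ENSMUSG00000031197, chrX:75514299-75534942) had the most allelic reads of the 9. In WT 1 of its 7116 reads was from the Xi. In XiΔXist 3394 of 11824 reads were, a share of 28.7% (27.9 to 29.5). It had 0 of 62 in shSCR and 0 of 60 in shYY1. The Xi allele was thus high in the untreated XiΔXist pool and found in no read of the hairpin pools. In bulk RNA, Xi expression in all cells and stronger Xi expression in some of the cells cannot be told apart. By level, the 129 allele was at 0.0411 CPM in WT and at 120 CPM (116 to 124) in XiΔXist, while the CAST allele was at 293 CPM (286 to 300) in WT and 298 CPM (291 to 304) in XiΔXist. The CAST intervals of both pools overlapped, and the 129 allele came to 0.403 of the CAST allele. That overlap depends on the scaling. The log2 difference of the CAST allele was 0.02 by CPM and 0.23 with scaling by DESeq2's median of ratios.

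Pls3 (ENSMUSG00000016382, chrX:75785654-75875182) lies 251 kb beyond Vbp1, on the other strand. Its Xi reads were 4 of 1810 in WT, 754 of 1649 in XiΔXist, 6 of 378 in shSCR and 2 of 365 in shYY1. The share in XiΔXist was 45.7% (43.3 to 48.1), against 0.221% (0.0860 to 0.567) in WT. The ratio of Xi to Xa reads was 0.842. The active allele did not stay level, since the CAST reads of Pls3 were at 74.3 CPM (70.9 to 77.8) in WT and 31.6 CPM (29.6 to 33.7) in XiΔXist. The 129 allele was at 26.6 CPM (24.7 to 28.6) in XiΔXist, so both alleles together were at 58.2 CPM, below the 74.5 CPM of WT.

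Tktl1 (ENSMUSG00000031397, chrX:74177259-74208500) is at the other end of the interval and was weakly expressed. In WT 0 of 51 reads were from the Xi, which allows a share of up to 5.88%. In XiΔXist 69 of 122 were, a share of 56.6% (47.7 to 65.0). It had 1 read in shSCR, from the Xa, and none in shYY1. The 129 allele of Tktl1 was at 2.44 CPM (1.90 to 3.08) and the CAST allele at 1.87 CPM (1.40 to 2.45) in XiΔXist, and the interval of the share included equal output of both alleles. The CAST allele was at 2.1 CPM in WT, within the interval of XiΔXist.

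Ikbkg (ENSMUSG00000004221, chrX:74393290-74453854) was the member just inside the threshold, with a d-score 0.0496 higher in XiΔXist. Its Xi reads were 3 of 2045 in WT, 140 of 2742 in XiΔXist, 2 of 128 in shSCR and 0 of 131 in shYY1. The share in XiΔXist was 5.11% (4.34 to 5.99), clear of the 0.147% (0.0499 to 0.430) in WT. G6pdx, the first enzyme of the pentose phosphate pathway, overlaps Ikbkg on the opposite strand, and whether counting used strand was not stated. G6pdx had 0 Xi reads of 93 in WT and 0 of 174 in XiΔXist.

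Rab39b (ENSMUSG00000031202, chrX:75572046-75578231), a small GTPase of vesicle traffic, was the member just outside the threshold, with a d-score 0.0224 higher in XiΔXist. It begins 37.1 kb beyond Vbp1. Its Xi reads were 0 of 1232 in WT, which allows up to 0.244%, and 10 of 446 in XiΔXist, a share of 2.24% (1.22 to 4.08). It had 0 of 9 in shSCR and 0 of 6 in shYY1. The Xa level moved far more than the Xi level. The CAST allele was at 50.7 CPM (47.9 to 53.6) in WT and 15.4 CPM (14.0 to 16.9) in XiΔXist, while the 129 allele reached 0.353 CPM.

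The other 4 members had at most 4 Xi reads in any pool. F8 (ENSMUSG00000031196, chrX:75172715-75382615), coagulation factor VIII, had 0 Xi reads of 455 in WT and of 289 in XiΔXist, and 0 of 13 and of 22 in the shSCR and shYY1 pools. Fundc2 (ENSMUSG00000031198, chrX:75382399-75396459), a protein of the outer mitochondrial membrane, had 2 of 1344 in WT, 3 of 1697 in XiΔXist, 0 of 11 in shSCR and 0 of 21 in shYY1. Cmc4 (ENSMUSG00000090110, chrX:75404846-75416584), a small mitochondrial protein with paired cysteine motifs, had 0 of 212 in WT, 0 of 244 in XiΔXist, 0 of 2 in shSCR and no read in shYY1. Brcc3 (ENSMUSG00000031201, chrX:75416628-75454001), a deubiquitinase specific for lysine 63 chains, had 4 of 4027 in WT, 2 of 4304 in XiΔXist, 0 of 51 in shSCR and 0 of 72 in shYY1. In XiΔXist the upper bound of the share was 0.169% for Brcc3, 0.518% for Fundc2, 1.31% for F8 and 1.55% for Cmc4. The 53% of the longest Cmc4 transcript that is identical to Mtcp1, the gene sharing its start, leaves the split of reads between that pair uncertain. Mtcp1 had 0 Xi reads of 1359 in WT and 1 of 1455 in XiΔXist, so the pair was silent whichever way reads were split.

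**Figure D1:**
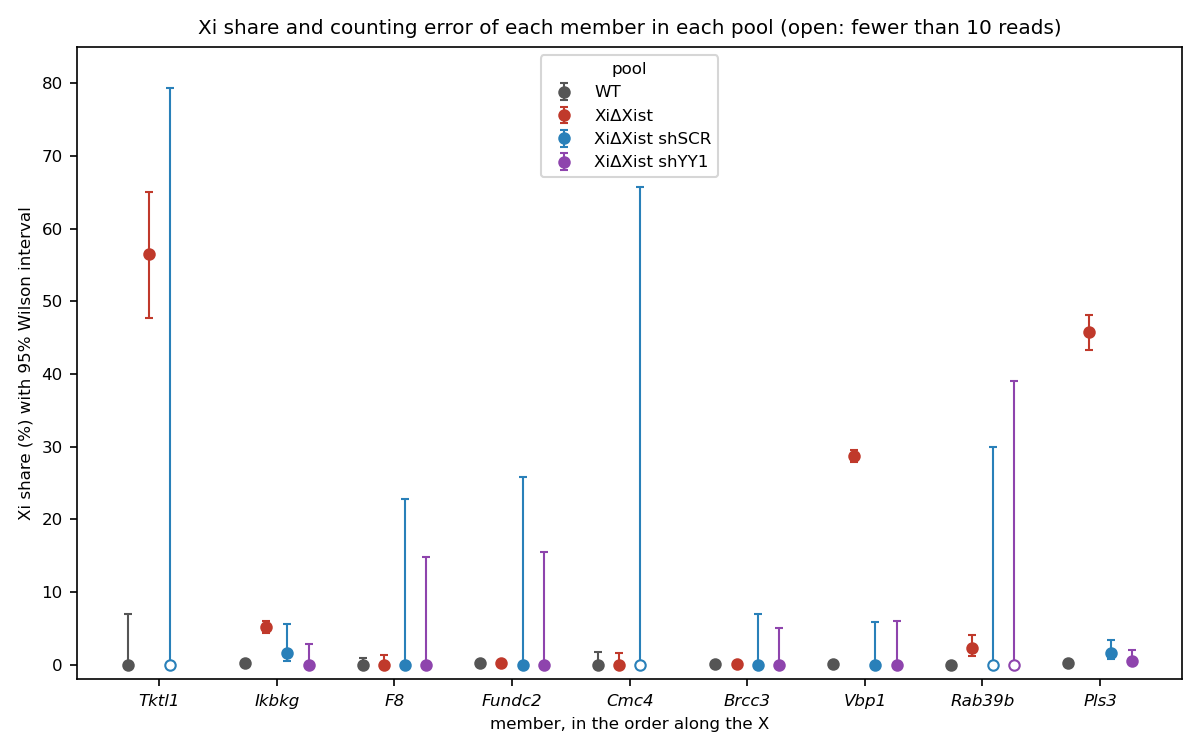
Xi share in percent (y axis) of the 9 members in the order along the X (x axis), with 1 point for each pool and bars for the 95% Wilson interval, open where a pool has fewer than 10 reads. Tktl1, Vbp1 and Pls3 stand at 56.6%, 28.7% and 45.7% in XiΔXist, and the hairpin pools of Vbp1 and Pls3 have upper bounds of at most 6.02%.

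The neighbours showed how far the Xi expression reached. Of 89 annotated genes of the interval in the tables, 31 were analysable in WT and XiΔXist, and 6 of these were raised. Besides the 4 members these were the lncRNA gene 4933407K13Rik and Gm8522, a processed pseudogene within F8. Gm8522 rested on 2 Xi reads of 44 in WT and 4 of 42 in XiΔXist, with overlapping intervals (1.26 to 15.1% and 3.77 to 22.1%). Of the 13 analysable genes in the 1 Mb before the interval none was raised, and no gene of the 1 Mb after it was analysable. The nearest analysable gene beyond Pls3 was Tbl1x, 1636 kb away, with 0 Xi reads of 1989 in WT and 14 of 1792 in XiΔXist.

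Most analysable genes between the raised members had few or no Xi reads. Flna, filamin A, lies 15.0 kb after Tktl1 and had 1 Xi read of 1639 in WT and 3 of 1357 in XiΔXist. The 12 analysable genes between Tktl1 and Ikbkg together had 1 Xi read of 2678 in WT and 3 of 2511 in XiΔXist. The 11 between Ikbkg and Vbp1 had 25 of 12832 in WT and 38 of 14452 in XiΔXist, a share of 0.263%. Most of those reads, 16 in WT and 27 in XiΔXist, came from Gm6039, another processed pseudogene within F8, whose Xi share was 8.29% in WT and 8.85% in XiΔXist. The 16 protein-coding genes of the interval that were neither raised nor members had 2 Xi reads of 9860 in WT and 5 of 10773 in XiΔXist.

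The transcript 4933407K13Rik, a lncRNA annotated across the Dxz4 macrosatellite repeat that bounds the large domains of the Xi, lies 21 kb from the near end of Pls3. Its Xi reads were 5 of 411 in WT, 24 of 514 in XiΔXist, 27 of 73 in shSCR and 24 of 60 in shYY1. The share was 1.22% (0.521 to 2.82), 4.67% (3.16 to 6.85), 37.0% (26.8 to 48.5) and 40% (28.6 to 52.6) in that order. Between untreated and hairpin pools its Xi share ran opposite to that of Pls3, high where that of Pls3 was low and low where it was high. From WT to XiΔXist both shares were higher. Whether the repeat or the longer reads of the hairpin libraries affected these shares was not tested. A processed pseudogene next to Tktl1, Rpl3-ps2, had 11 of 11 reads from 129 in each hairpin pool but only 3 reads in WT and 3 in XiΔXist. It was named after its values were seen. Copies of the pseudogenes Rpl3-ps2, Gm8522 and Gm6039 elsewhere in the genome were not sought. Whether their 129 reads came from the Xi was not tested.

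**Figure D2:**
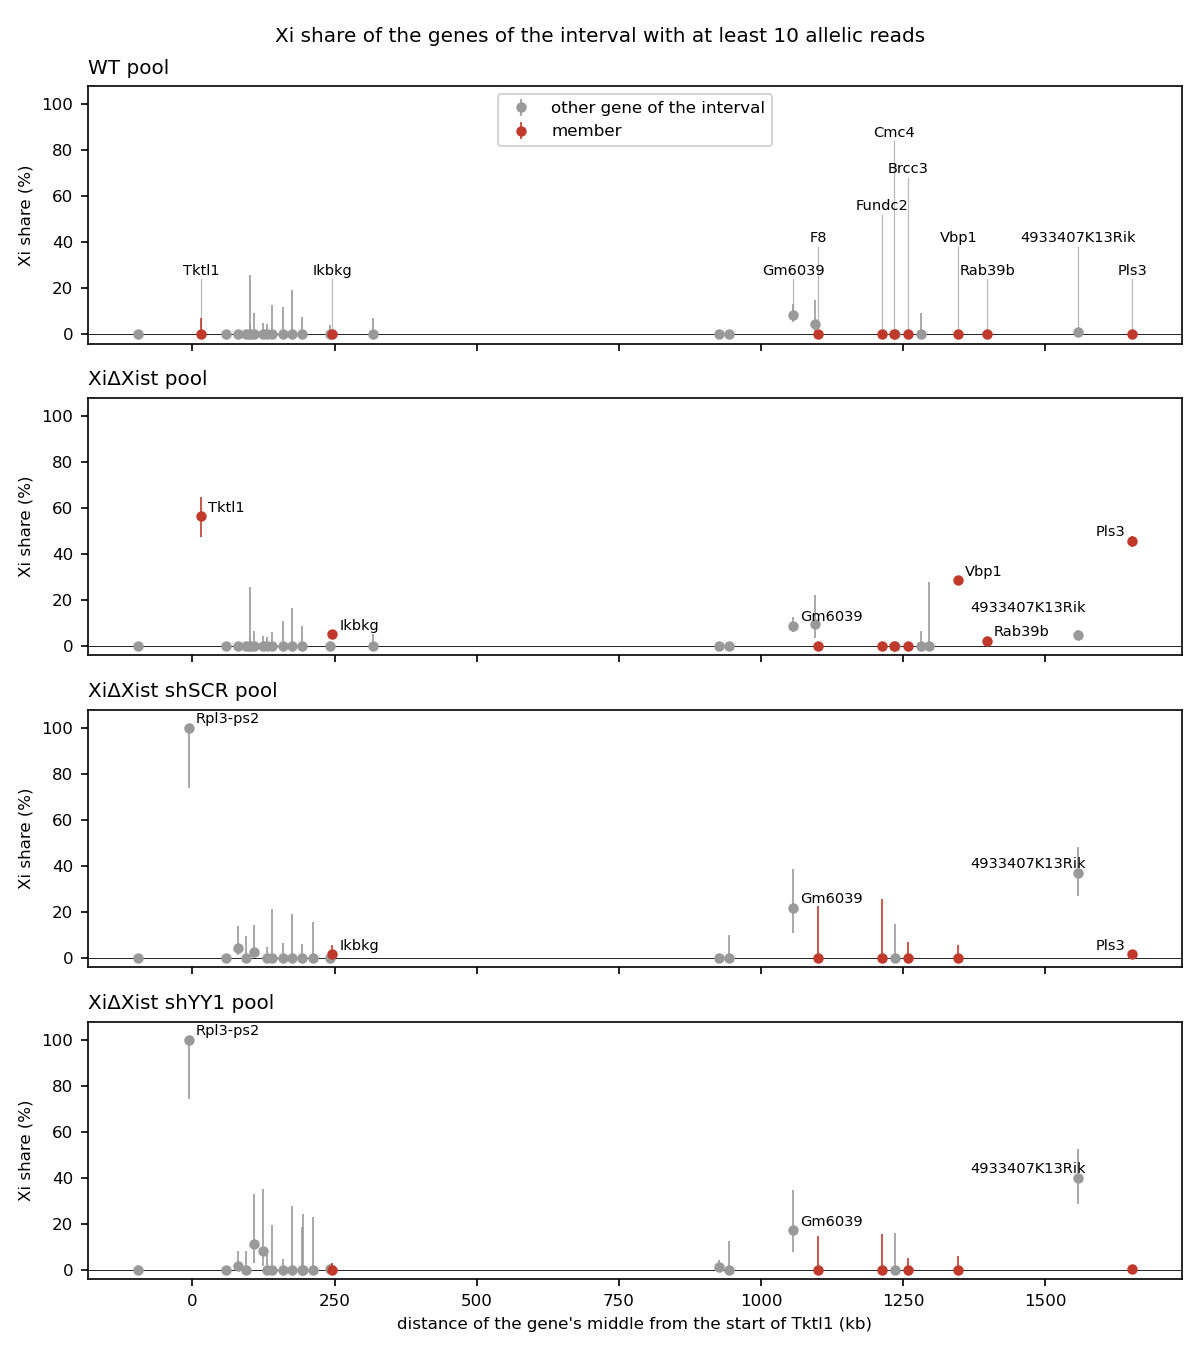
Xi share in percent (y axis) against the distance of each gene's middle from the start of Tktl1 in kb (x axis), 1 panel for each pool, for genes with at least 10 allelic reads in that pool. Red points are members, grey points other genes and bars 95% Wilson intervals. In XiΔXist, Tktl1, Vbp1 and Pls3 are the highest points, and Gm8522 at 9.52% and Gm6039 at 8.85% come next. In the hairpin pools the highest points are Rpl3-ps2, with 11 of 11 reads, and 4933407K13Rik at 37.0% and 40%.

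The next comparison asked whether cells carrying the scrambled hairpin kept the Xi expression of untreated XiΔXist cells. Of the 9 members, 6 had at least 10 reads in both pools, and 3 of the 6 had a d-score lower by at least 0.03 in shSCR. The 3 were Vbp1, Pls3 and Ikbkg. Among 296 X-linked genes 27 were lower by that much (9.12%), but the members were chosen for being high in the untreated pool, which favours a lower value in another one. The change was -28.7 percentage points for Vbp1 and -44.1 for Pls3, and the intervals did not overlap between the pools for either gene. At its untreated share Vbp1 would have given 17.8 Xi reads of the 62 in shSCR, and none was seen, which allows a share of up to 4.84%. For Ikbkg the share was 1.56% (0.430 to 5.52) in shSCR, and the interval overlapped that of the untreated pool. Tktl1 and Rab39b had too few reads in shSCR to tell whether their Xi reads were kept.

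Of the 40 raised X-linked genes, 29 were analysable in shSCR, and 7 of these were still at least 0.03 above WT there. None of the 3 raised members that could be measured was among the 7, and of the 26 other raised genes 19 were not among them either. The comparison shares the untreated XiΔXist pool with the one against WT. The depth, read length, virus, selection and share of mitochondrial reads all differed between the untreated and the hairpin pools. These differences cannot be told apart. The fibroblast markers summed to 3767 CPM in the untreated pool and 8169 CPM in shSCR, and their part in the result was not tested. They did not all differ the same way. Col1a1 was at 9.28 CPM untreated and 791 CPM in shSCR, and Col3a1 at 112 and 29.7 CPM. The Xi share of the whole chromosome was 6.01% in the untreated pool and 6.0% in shSCR.

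The shYY1 pool was compared with the scrambled hairpin pool by a two-sided Fisher's exact test for each of 311 X-linked genes, adjusted by Benjamini-Hochberg. The test compares 2 pools and not 2 conditions. None of the 6 members tested had an adjusted p under 0.05, and none had an unadjusted p under 0.05. Over the X, 2 of 311 genes passed (0.643%) and 7 had an unadjusted p under 0.05. Pls3 differed by -1.04 percentage points in shYY1 (exact p = 0.287, adjusted p = 1). Ikbkg differed by -1.56 points (exact p = 0.243, adjusted p = 1). Vbp1, Brcc3, F8 and Fundc2 had no Xi read in either pool, so no loss could be seen for them. By size, 0 of the 6 members had a d-score changed by 0.03 against 35 of 311 X-linked genes (11.3%). The Xi shares of the 6 were at most 1.59% in shSCR, so a fall of 0.03 was not possible. The comparison therefore cannot show whether Xi reads of the members are lost with less Yy1, and nothing is read from these counts. A change of the Xi share of Vbp1 below the limits of 4.84% in shSCR and 5% in shYY1 was not detectable at this depth. With both hairpin pools added, Vbp1 had 0 of 122 Xi reads (up to 2.46%) and Pls3 8 of 743, a share of 1.08% (0.547 to 2.11).

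**Figure D3:**
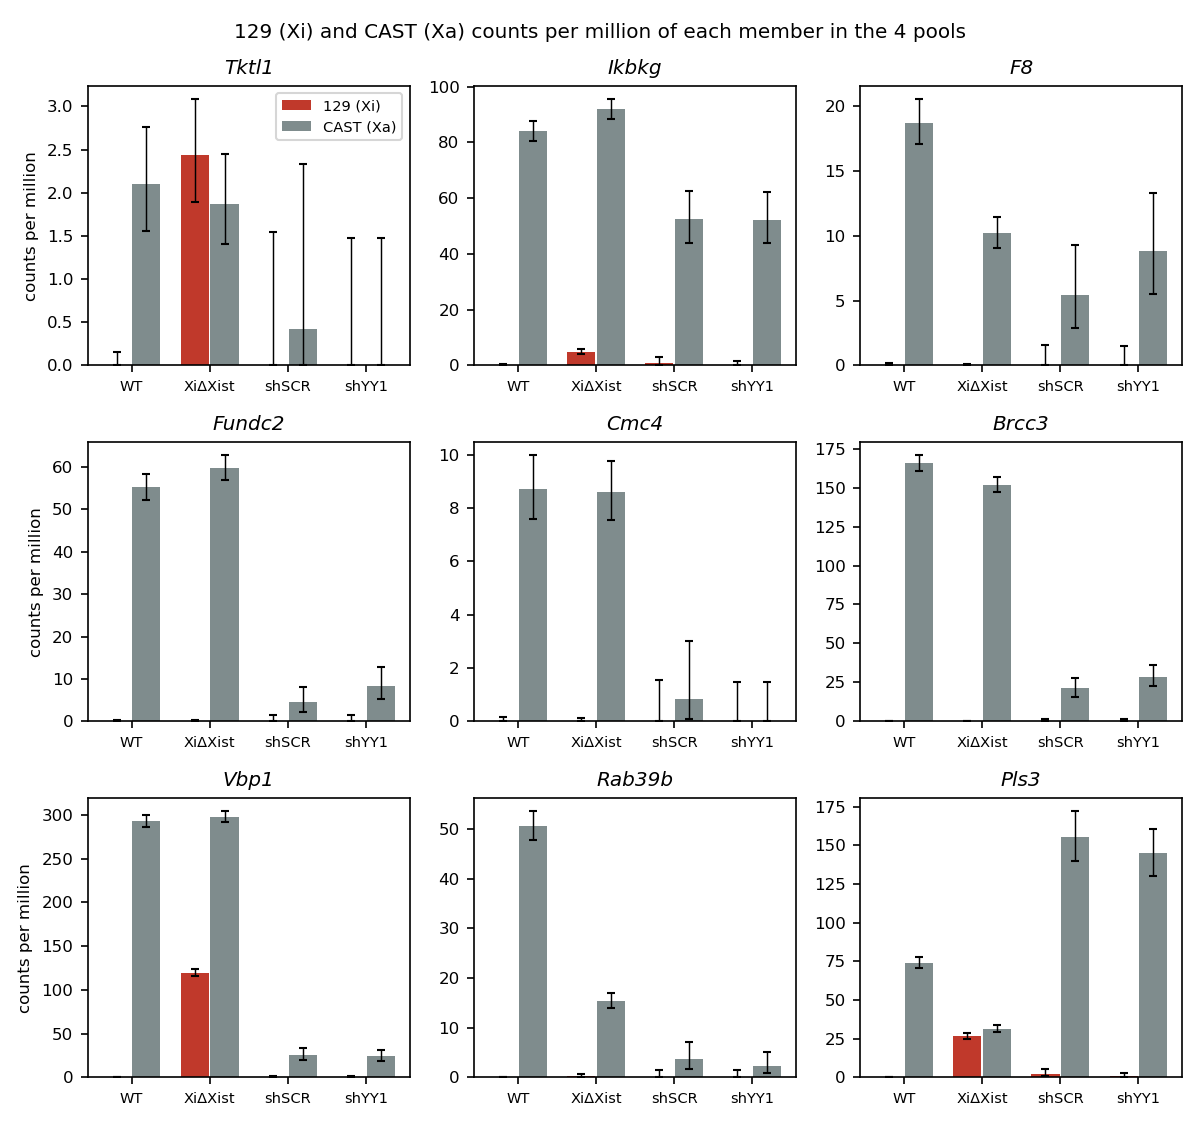
CPM (y axis, from 0, its own scale in each panel) of the 129 (Xi, red) and CAST (Xa, grey) alleles of the 9 members in the 4 pools (x axis), with exact 95% Poisson intervals. The red bars reach 120 CPM for Vbp1 and 26.6 CPM for Pls3 in XiΔXist, and the grey bar of Pls3 is at 31.6 CPM there against 74.3 CPM in WT.

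Total level, both alleles together, was compared as log2(CPM + 1), leaving out genes whose 2 pools held fewer than 50 reads in sum. Of the 9 members 1 differed by 2-fold or more between XiΔXist and WT, against 996 of 10730 annotated genes (9.28%). That gene was Rab39b, with a log2 change of -1.63. The log2 difference was 0.51 for Vbp1, 0.78 for Tktl1, 0.20 for Ikbkg and -0.35 for Pls3. The Xi reads of Vbp1 and Tktl1 thus came with a higher total, and those of Pls3 did not. The median of the 9 was -0.02 and that of all genes -0.11. On the CAST allele alone, 2 of the 9 were lower by 2-fold or more, Rab39b with -1.66 and Pls3 with -1.21, against 39 of 382 X-linked genes (10.2%). F8 was at 18.7 CPM in WT and 10.2 CPM in XiΔXist, a log2 difference of -0.82. These log2 values understate the change of low genes such as Tktl1, whose total went from 2.1 to 4.31 CPM, a ratio of 2.05.

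**Figure D4:**
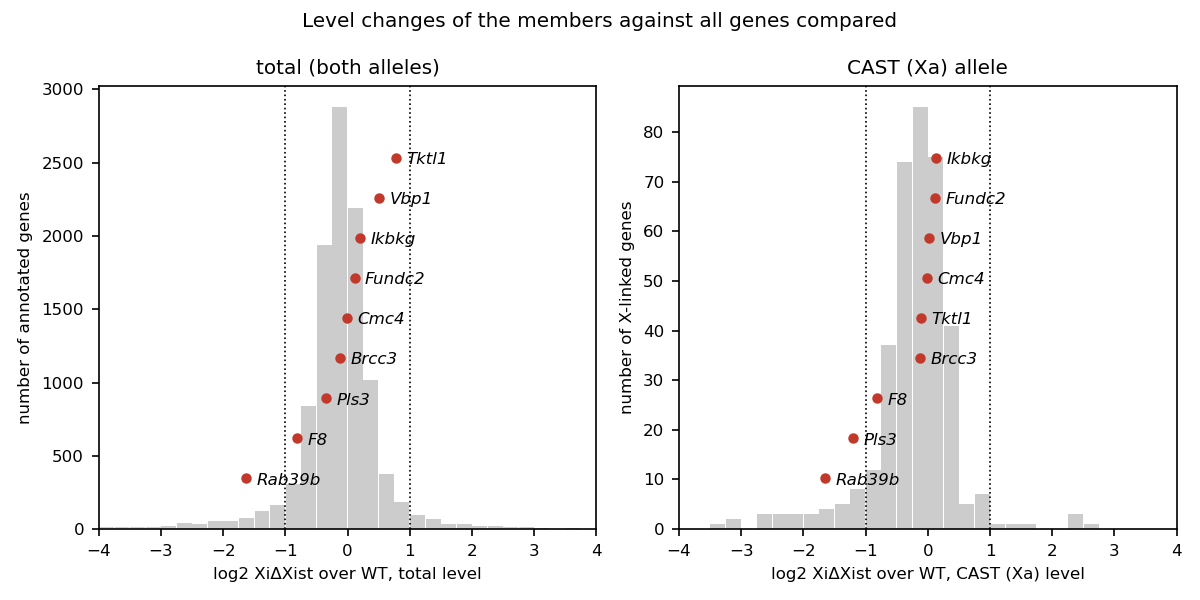
Log2 change from WT to XiΔXist (x axis) of the members (red points, placed in rank order at arbitrary heights) over histograms of all genes compared (grey, number of genes on the y axis), for the total level and for the CAST allele. Dotted lines mark a 2-fold difference. Rab39b lies beyond the lower line in both panels and Pls3 only for the CAST allele.

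The members' levels differed widely between shSCR and the untreated pool. Of the 9, 6 were lower by 2-fold or more and 1 was higher, against 24.9% of 10413 genes lower and 39.7% higher. Mitochondrial reads, part of the CPM denominator, were 22.3% of the allelic reads untreated and 36.7% in shSCR. Without them the member counts were the same, with 21.1% of genes lower and 44.4% higher. With the median of ratios as the scaling, 43.7% of genes were lower and 25.5% higher, and 8 members were lower and none higher. Vbp1 was at 417 CPM untreated and 25.9 CPM in shSCR, a log2 difference of -3.96. The difference was -3.44 for Fundc2 and -2.78 for Brcc3. Pls3 was at 58.2 CPM untreated and 158 CPM in shSCR, a log2 difference of 1.42 that was 0.32 with the median of ratios. The CAST allele differed the same way, from 298 to 25.9 CPM in Vbp1 and from 31.6 to 155 CPM in Pls3. Between shSCR and shYY1 none of the 4 members with enough reads differed by 2-fold, against 199 of 8227 genes (2.42%). They were Ikbkg, Brcc3, Vbp1 and Pls3, with log2 changes from -0.12 to 0.42.

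Partners and paralogs of the members were compared from a list of 23 genes, of which 15 had enough reads. None of the 15 differed in total level by 2-fold between XiΔXist and WT, against 996 of 10730 annotated genes (9.28%). So few genes cannot be told from that share. Their median log2 change was 0.01. The prefoldin subunits Pfdn1, Pfdn2 and Pfdn4, partners of Vbp1, had log2 differences of 0.02, 0.21 and -0.08. Those of Chuk and Ikbkb, the catalytic subunits of the IκB kinase, were 0.01 and -0.02. Of the Brcc3 complexes, the values were 0.01 for Abraxas1, -0.38 for Abraxas2 and 0.08 for Brca1. Tkt, the transketolase itself, had 0.27. Pls1, plastin 1, had -0.96, from 3.83 to 1.48 CPM. The Rab39b paralog Rab39 and the clotting factors Vwf, F9 and F10 had too few reads to compare.

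The X-linked genes with the most similar Xi shares were sought among 281 others with at least 10 reads in each of the 4 pools, by the Euclidean distance over the 4 shares in percentage points. Nearest to Vbp1 was Taf9b, a TFIID subunit, at a distance of 0.839, with 0% in WT, 27.9% in XiΔXist and 0% in both hairpin pools. Las1l and Tmem29 followed at 6.76 and 14.1. Nearest to Pls3 was Rps4x, a ribosomal protein gene, at 2.25, with 0% in WT and shSCR, 44.8% in XiΔXist and 1.80% in shYY1. Atp7a, a copper transporter, followed at 7.63, and Pgk1, a glycolytic enzyme, at 8.07. None of these 6 lies in the interval. Taf9b, Atp7a and Pgk1 lie near each other at chrX:106027276-106221158, and in hairpin pools the 3 had 13 to 61 reads, none from the Xi. The likeness describes 4 pools and rests on the untreated XiΔXist pool for most of its range.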

How the data were processed

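Total RNA was sequenced, and the authors aligned reads with TopHat to a genome masked at strain variants, removed alignments of low mapping quality, split reads by allele with SNPsplit and counted exons with featureCounts 1.6.3. The deposited values are raw read counts per gene, 1 table per allele and group with the replicates added together. The strand setting and the annotation release are not given in the sources used here. Of 46078 gene IDs, 45143 matched GENCODE M21. Xi shares used reads as counted, and CPM used all allelic reads of a pool, of which 0.0709% to 0.0925% fell on unmatched IDs. The members, gene lists and thresholds were chosen with earlier results of these data known. Named genes were the members, their nearest analysable genes, genes of the interval and flanks raised by 0.03 or with Xi reads of at least 0.05 of Xa reads in XiΔXist, and the 3 genes of most similar share. Of the nearest genes, 1 is not reported here. Fisher's exact test (scipy 1.17.1) was tested on simulated data. Transcript copies were sought with blastn at 90% identity and 50% coverage. Alternatives covered read minimum, threshold, allele scaling and level scaling. Promoter sequences came from RefSeq (GRCm38.p6).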

Additional observations from a re-analysis of the deposited data

How the results depend on the processing

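No paired analysis was possible because the deposited columns pool the replicates, and for the same reason no replicate could be left out. The 4 raised members were the same genes with at least 20 or 50 reads and with scaled CAST reads. The scaling set the median 129 share of autosomal genes with reads of both alleles to 0.5. The raised members were 3 (Tktl1, Vbp1 and Pls3) at a d-score change of 0.05 or 0.1. The 6 raised genes of the interval and flanks became 3 at 0.05 and 3 at 0.1. The 2 X-linked genes that passed Fisher's test between hairpin pools became 35 under a d-score change of 0.03, with no member among them. The 1 member with a 2-fold total difference between XiΔXist and WT became 2, with Tktl1 added, under the median of ratios and under a pseudocount of 0.1. The count of partners and paralogs went from 0 to 1, Pls1, under the pseudocount of 0.1. The other 32 alternatives for counts stayed within 1.5 times, though the genes could differ. Among genes that overlap no other gene with at least 10 reads, the 6 raised genes became 4, without Ikbkg and Gm8522. The 3 members lower in shSCR became 2 (Vbp1 and Pls3) at a d-score change of 0.05. Allele scaling moved 1 of 34 shares of a member beyond its interval, that of Vbp1 in XiΔXist, to 27.1%. The CPM values were less stable. Leaving mitochondrial reads out of the CPM moved 26 of 34 CAST levels and 4 of 34 129 levels of members beyond their intervals. The CAST level of Vbp1 in XiΔXist went from 298 to 383 CPM. Depth limits the hairpin pools most, where Tktl1, Cmc4 and Rab39b had fewer than 10 reads each, and all intervals miss the spread between cultures.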
